A study of Mus musculus with 36 samples.

Results

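Eph receptors, their membrane-bound ephrin ligands, the semaphorins and their plexin receptors were examined in murine keratinocytes with and without plakophilin 4 (PKP4), a junction protein of the p120-catenin family. These families were picked with earlier results of these data known. Members were then chosen by name alone, as every protein-coding gene whose symbol begins with Epha, Ephb, Efna, Efnb, Sema, Plxna, Plxnb, Plxnc or Plxnd. This rule gave 51 of the 55358 genes counted: 14 Eph receptors, 8 ephrins, 20 semaphorins and 9 plexins. Of these, 36 had enough reads to be tested (9 Eph receptors, 8 ephrins, 13 semaphorins and 6 plexins), and all 51 had at least 1 read. A gene could pass this read filter through a single group, so the counts over the 36 describe them and carry no test.

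RNA was sequenced from 36 libraries in 12 groups of 3. WT keratinocytes came from Pkp4+/+ newborn pups and PKP4-KO keratinocytes from newborn pups homozygous for a Pkp4 null allele, derived from tm1b by removal of its reporter with FLPe, which lacks a critical exon in every cell. The line came from a C57BL/6N stock and had been backcrossed onto C57BL/6J. Rescue cells were PKP4-KO keratinocytes that had received human PKP4 tagged with EGFP from a lentivirus under puromycin selection, and no library of vector-only cells was analysed here. Culture lasted 24 h or 72 h, in low calcium medium (LCM) or in high calcium medium (HCM), which triggers the assembly of cell contacts and differentiation in keratinocytes. The sources used here do not say how many pups or derived lines stand behind a genotype, so a difference between genotypes and a difference between lines cannot be told apart, and the p-values measure the spread between these libraries. In such bulk samples fewer cells of a type and less RNA per cell cannot be told apart either.

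Ephrins are tethered to the membrane, the A class by a lipid anchor and the B class by a transmembrane segment, and they bind Eph receptor tyrosine kinases on the neighbouring cell. Signals run into both cells of the pair, and in epithelia they are known for repulsion, boundary formation and the tuning of cell contacts. Semaphorins are secreted or membrane-bound ligands of plexins, whose cytoplasmic part acts on small GTPases and so on actin and adhesion. Neuropilins serve as co-receptors for most class 3 semaphorins.

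Libraries held between 13602728 and 22467187 counts in genes (median 17353519.5), of which the members took 0.029 to 0.139%. Levels are given as CPM, counts scaled to the library's total after a trimmed-mean (TMM) correction, and between genes only as CPM per kilobase of gene model. The 3 PKP4-KO libraries at 72 h HCM had TMM factors of 0.48 to 0.55 against 0.71 to 1.39 in the others, so their values lean most on the scaling. Pkp4 itself lay at 33.4 to 76.3 CPM in WT, 6.4 to 14.1 CPM in PKP4-KO and 6.52 to 11.9 CPM in Rescue, and the EGFP-PKP4 transcript had 1902 to 15325 counts in Rescue and at most 113 elsewhere. Summed keratinocyte markers reached 23400 to 71700 CPM in every library, while the fibroblast, melanocyte, endothelial and immune lists stayed at or below 11.4 CPM each. The melanocyte gene Tyr, the Langerhans cell gene Cd207 and the Merkel cell gene Atoh1 were at 0 in all 36 libraries, and the Merkel list's sum of 7.56 to 42.9 CPM came mostly from Sox2.

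Libraries that stood apart were found by 2 further sets of genes. In 5 libraries (WT 24 h LCM replicates 1 and 2, WT 24 h HCM replicate 1, Rescue 24 h HCM replicate 3 and Rescue 72 h HCM replicate 1) the glial gene Gfap had 25 to 368 counts against 0 to 7 in the other 31, and Sox10, a neural crest and glial transcription factor, 1 to 25 against 0 to 1. Epha10 and Epha5, of 25 and 7 reads in all, had reads only there, and Plxnb3 had 50 of its 52 reads there. All 3 failed the filter. None of the 5 was a PKP4-KO library, so values without them are given for some of the member calls named below. They are not given for every call that was lost, nor for any of the partner genes. WT at 24 h LCM then has 1 library, which is assumed to vary like the other groups, so a lost call there can come from the smaller number of libraries. Xist, which is transcribed from an inactive X chromosome, lay at 24.2 to 71.3 CPM in WT, 0 to 1.14 in PKP4-KO and 0 to 1.71 in Rescue. The Y-linked gene Eif2s3y lay at 2.06 to 7.14 CPM in Rescue and at or below 0.341 in WT and PKP4-KO, although Rescue is described as derived from the PKP4-KO cells. The part of these differences in the results was not tested.

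The 250 bases upstream of the annotated start were read from GRCm39 for 5 of the 8 members whose change in PKP4-KO was called in the same direction in every condition, 4 that were lower and Plxna3, which was higher: the ephrins Efna3 (chr3:89230273-89230522, minus strand), Efna4 (chr3:89245374-89245623, minus strand) and Efnb2 (chr8:8711250-8711499, minus strand), the semaphorin Sema3c (chr5:17778969-17779218, plus strand) and the plexin Plxna3 (chrX:73372422-73372671, plus strand). Each is written 5′ to 3′ on the gene's strand, with matches to any of 5 motifs in capitals, on either strand.
Efna3: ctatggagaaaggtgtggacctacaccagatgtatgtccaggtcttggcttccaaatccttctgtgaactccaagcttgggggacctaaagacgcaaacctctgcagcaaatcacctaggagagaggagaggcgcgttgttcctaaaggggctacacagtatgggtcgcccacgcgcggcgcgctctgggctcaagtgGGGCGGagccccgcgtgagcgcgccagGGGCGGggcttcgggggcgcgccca
Efna4: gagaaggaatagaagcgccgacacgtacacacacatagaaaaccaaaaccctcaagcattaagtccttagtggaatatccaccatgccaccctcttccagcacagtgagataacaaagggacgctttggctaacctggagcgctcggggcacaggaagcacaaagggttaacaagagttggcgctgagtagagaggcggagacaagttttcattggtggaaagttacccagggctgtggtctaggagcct
Efnb2: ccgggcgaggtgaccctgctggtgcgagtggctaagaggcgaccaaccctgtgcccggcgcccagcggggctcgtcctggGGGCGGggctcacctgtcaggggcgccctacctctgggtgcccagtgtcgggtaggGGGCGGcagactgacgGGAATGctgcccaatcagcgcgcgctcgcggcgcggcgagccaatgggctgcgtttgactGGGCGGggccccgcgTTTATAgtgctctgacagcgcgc
Sema3c: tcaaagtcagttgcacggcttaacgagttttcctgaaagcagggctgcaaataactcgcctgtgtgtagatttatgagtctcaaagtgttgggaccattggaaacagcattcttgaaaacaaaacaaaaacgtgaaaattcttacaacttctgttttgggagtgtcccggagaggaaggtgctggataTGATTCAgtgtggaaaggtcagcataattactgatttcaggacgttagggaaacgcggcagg
Plxna3: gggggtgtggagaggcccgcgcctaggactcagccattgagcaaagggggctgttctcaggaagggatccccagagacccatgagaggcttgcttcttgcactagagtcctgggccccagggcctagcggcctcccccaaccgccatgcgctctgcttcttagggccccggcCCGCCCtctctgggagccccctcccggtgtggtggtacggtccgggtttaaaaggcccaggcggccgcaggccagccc
The motifs searched were the GC box (GGGCGG), AP-1 (TGANTCA), TEAD (GGAATG), an E-box (CACGTG) and a TATA box (TATAAA). Efna3 held 2 GC boxes, Efnb2 held 3 GC boxes, 1 TEAD match and 1 TATA box, Sema3c held 1 AP-1 match, Plxna3 held 1 GC box and Efna4 held none of the 5. CpG dinucleotides numbered 18 in Efna3, 8 in Efna4, 27 in Efnb2, 8 in Sema3c and 12 in Plxna3, against a median of 8 in all promoters. A GC box stood in 27 of the 36 tested members (75%), in 36.3% of 21757 promoters and in 49.1% of those of 12546 tested genes. AP-1 stood in 2 of 36 (6.18% of all promoters), TEAD in 6 (12.1%), the TATA box in 1 (11.9%) and the E-box in 0 (6.26%). The Efna3 window overlaps an exon of the antisense long non-coding RNA Gm66678 and the Efnb2 window exons of 4921522P10Rik.

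By CPM per kilobase, averaged over all groups, the most abundant member was the ligand Efna3 at 36.6, followed by Efnb1 at 17.4, the plexin Plxnb2 at 16.1, Efna1 at 13.9, the receptor Epha1 at 11.8, Ephb6 at 10.9 and the secreted semaphorin Sema3c at 10.8. The order differed between groups, and at 24 h LCM Efna3 stood at 9.1 in PKP4-KO and 12.1 in Rescue, below Efnb1 at 18.6 and 21.5. Epha7, at 0.0331 CPM per kilobase, was among the lowest of those tested, and Sema6c lay lower still. The filter fell between Sema6c (138 reads, mean 0.19 CPM) and Sema3b (119 reads, 0.166 CPM), which passed, and Sema6a (59 reads, 0.0849 CPM), Sema6b (54 reads, 0.0804 CPM) and Plxnb3 (52 reads, 0.0746 CPM), which did not. The remaining genes that did not pass were Epha3, Epha5, Epha6, Epha8, Epha10, Plxna4, Plxnc1, Sema3a, Sema3d, Sema3g, Sema4g and Sema5b.

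**Figure D1:**
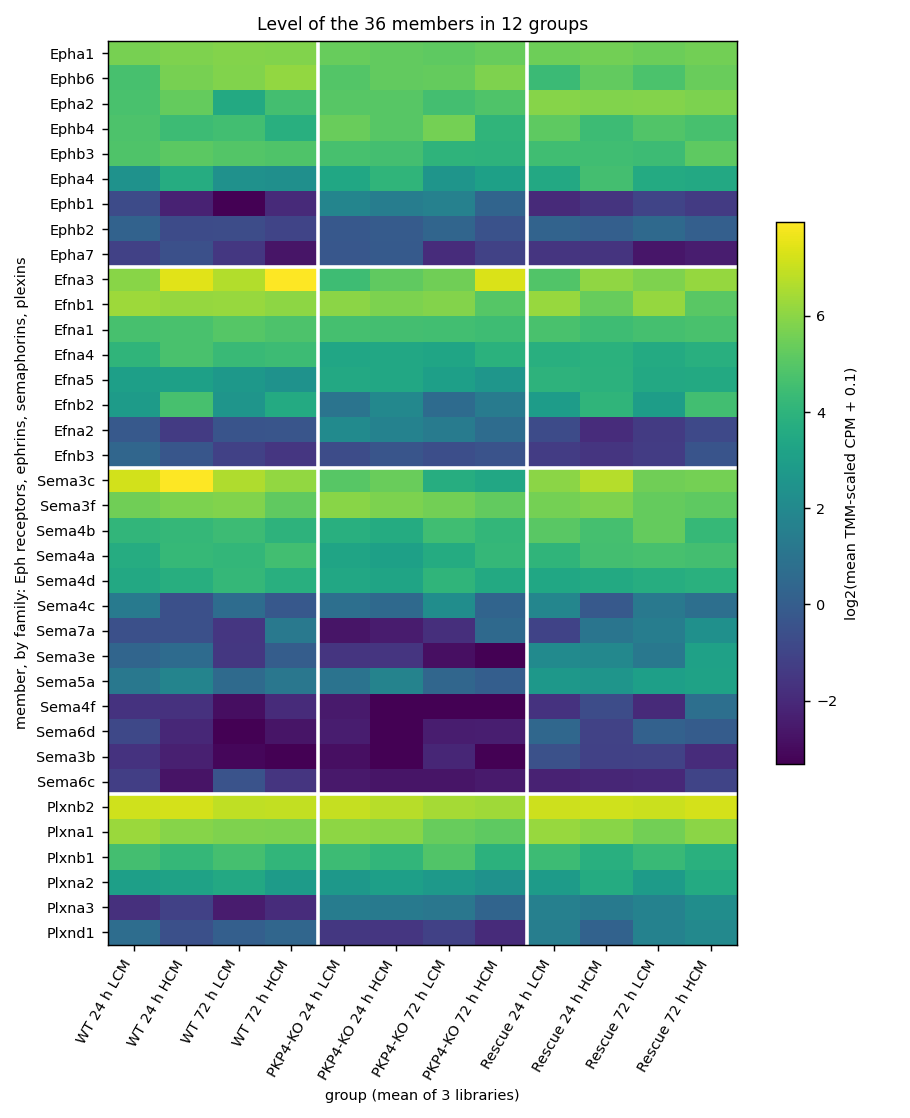
Colour gives the level of each of the 36 tested members (rows, by family) in the 12 groups (columns), as log2 of the mean CPM of 3 libraries plus a small offset (darker is lower), so colours compare groups within a gene. Efna3 goes from 61.2 CPM in WT at 24 h LCM to 173 at 24 h HCM, and the PKP4-KO columns are darker than WT for Efnb2, Sema3c and Sema3e and lighter for Ephb1 and Plxna3.

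Summed over the family, ephrin RNA was lower in PKP4-KO than in WT in every condition. The sum in WT was 76.1 ± 3.23 CPM per kilobase (SD, n = 3) at 24 h LCM and 129 ± 15.1 in HCM, then 95.8 ± 3.57 and 153 ± 42 after 72 h. In PKP4-KO it was 52.5 ± 2.44, 55.3 ± 4.78, 58.6 ± 5.7 and 98.5 ± 7.06 in the same order. Efna3 made up most of the difference, and without it the sums were 50.9, 57.7, 53.9 and 51.5 in WT and 43.4, 40.4, 39.6 and 33.2 in PKP4-KO. The WT sum at 72 h HCM was 129, 129 and 201 by library. Semaphorin sums went from 37.6, 54.2, 34.6 and 27 CPM per kilobase in WT to 22.5, 21.8, 20.3 and 17.6 in PKP4-KO, and most of that was Sema3c, without which they were 16.8, 19.3, 21.1 and 17.1 in WT and 18, 15.9, 18.5 and 16.1 in PKP4-KO. Eph receptor sums lay at 36.3 to 47.3 in WT and 38 to 40.1 in PKP4-KO, and plexin sums at 23.8 to 30 and 16.5 to 26.6. These sums describe the families and were not tested.

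Each gene was then tested between genotypes with edgeR's quasi-likelihood test and Benjamini-Hochberg adjustment over all 15114 genes tested, at an adjusted p below 0.05. Differences are log2 values of PKP4-KO minus WT. At 24 h LCM 6 members were higher and 9 lower, beside 19.7% and 20.6% of all genes. At 24 h HCM 5 were higher and 16 lower (20.7% and 22.2% of all genes), at 72 h LCM 7 and 14 (21.3% and 23.8%), and at 72 h HCM 2 and 13 (21.9% and 29.9%). At 24 h LCM both shares of the members lay near those of all genes, as did the higher calls at 72 h LCM and the lower calls at 72 h HCM. The median member stood at -0.30, -0.34, -0.34 and -0.35 in that order, against 0.00, -0.00, 0.02 and -0.07 for all genes. With members whose reads were all 0 in a group set at their bound, or left out where neither group passed the floor of 3 counts in each library, the medians were -0.30, -0.22, -0.34 and -0.33. Without TMM factors the calls were 3 higher and 12 lower at 24 h LCM, 6 and 18 at 72 h LCM and 2 and 21 at 72 h HCM, where DESeq2 called 7 and 11. Without the 5 Gfap-bearing libraries 9 of the 15 calls at 24 h LCM remained, leaving 1 WT library in that group, as did 18 of 21, 20 of 21 and all 15 in the other conditions. Without them the 24 h differences were -1.5 and -2.38 for Efna3, -0.89 and -1.41 for Efna4, -1.83 and -2.54 for Efnb2, -2.15 and -2.29 for Sema3c and 3.97 and 2.98 for Plxna3 in LCM and HCM, all still called.

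Across the 4 conditions 29 of the 36 were called at least once, beside 73.8% of all genes. Of all genes 10.2% were lower in all 4 and 8.48% higher. Lower in all 4 were 6 members, the ligands Efna3, Efna4 and Efnb2, the receptor Epha1 and the semaphorins Sema3c and Sema3e. Higher in all 4 were 2 members, the receptor Ephb1 and the plexin Plxna3. Ephb1 passed the read filter only through PKP4-KO, and Plxna3 only through PKP4-KO and Rescue. Sema3e passed it only through WT and Rescue. For these genes a call in the other direction was hardly possible. The 7 never called were Efna1, Efna5, Efnb3, Ephb2, Epha7, Plxnb1 and Sema3b.

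**Figure D2:**
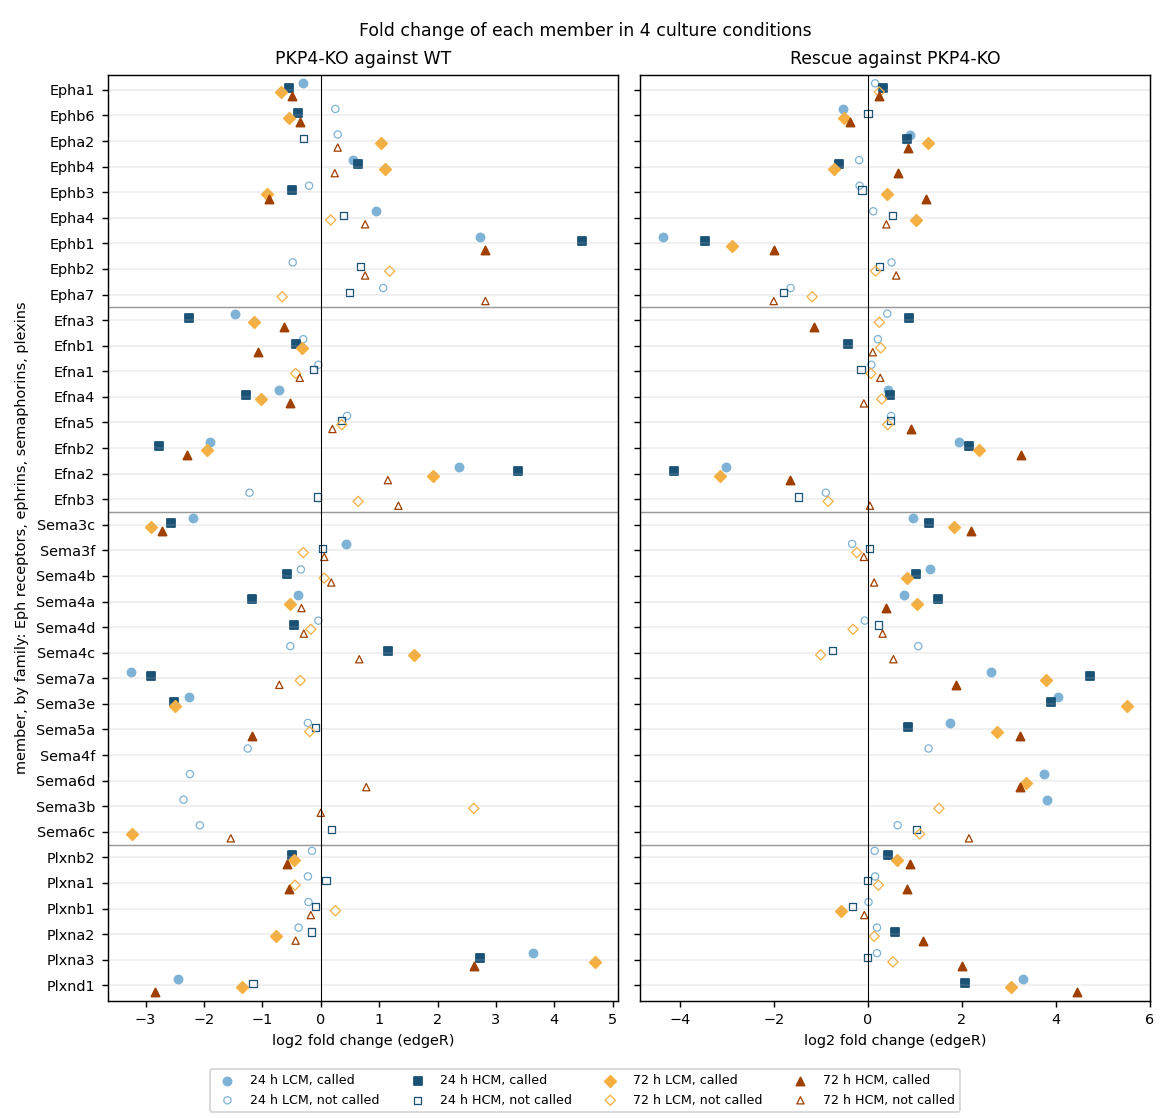
Log2 fold change of each tested member in the 4 culture conditions (symbols), for PKP4-KO against WT on the left and Rescue against PKP4-KO on the right, filled where the adjusted p is below 0.05 and left out where one group had 0 reads. On the left Efna3, Efna4, Efnb2, Sema3c and Sema3e lie below 0 and Plxna3 and Ephb1 above it in each condition shown, and on the right Efnb2, Sema3c and Sema3e lie above 0.

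Among the ephrins, Efna3 (chr3:89221203-89230272) had the most RNA per kilobase in WT and fell in every condition. In WT it measured 57.8, 63.3 and 62.5 CPM at 24 h LCM, 142, 213 and 164 at 24 h HCM, 105, 92.2 and 108 at 72 h LCM, and 191, 198 and 351 at 72 h HCM. In PKP4-KO it measured 23.6, 22 and 20.8, then 35.8, 29.9 and 43.6, then 41.5, 56.9 and 40.4, and finally 176, 151 and 150 CPM. No PKP4-KO library reached the lowest WT library of its condition, although at 72 h HCM the gap was narrow. The differences were -1.47 (SE 0.21, edgeR adjusted p = 1.73e-06), -2.25 (SE 0.21, adjusted p = 7.46e-10), -1.14 (SE 0.21, adjusted p = 4.97e-05) and -0.63 (SE 0.20, adjusted p = 0.0105) by edgeR's test with Benjamini-Hochberg adjustment. Without the WT library at 351 CPM (72 h HCM replicate 3) the last became -0.30 (edgeR adjusted p = 0.182), so that call rests on 1 library, and it was also lost with the compared groups alone in the fit (-0.61, edgeR adjusted p = 0.0648).

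Efna4 lies beside Efna3 on chromosome 3, and Efna1 follows on the same strand (chr3:89179037-89188449). Efna4 (chr3:89240695-89245373) lay at 14.8 to 18.7 CPM in WT and 9.44 to 10.6 in PKP4-KO at 24 h LCM, 20.9 to 31 and 10.3 to 11.3 at 24 h HCM, 19.5 to 20 and 8.9 to 10.2 at 72 h LCM, and 18.7 to 23.6 and 13.3 to 17 at 72 h HCM. The libraries did not overlap in any condition, and the differences were -0.72, -1.28, -1.02 and -0.52 (SE 0.16 each, edgeR adjusted p = 0.0007, 1.63e-07, 8.73e-06 and 0.00907). DESeq2 did not call the last (-0.40, DESeq2 adjusted p = 0.0514). Efna1, a ligand that binds Epha2 among others, did not pass the test in any condition, at -0.04, -0.12, -0.43 and -0.36 (SE 0.20 each, edgeR adjusted p = 0.88, 0.672, 0.0722 and 0.135). One library decided its 72 h LCM value, since without PKP4-KO replicate 1 (35.2 CPM against 16.8 and 18.4) it was -0.85 (edgeR adjusted p = 0.000279). Without TMM factors Efna1 was called at 72 h in LCM (-0.81, edgeR adjusted p = 0.00236) and in HCM (-1.1, edgeR adjusted p = 6.25e-05). The 181 tested genes within 5 Mb of Efna3 had medians of -0.08, -0.39, 0.17 and -0.15.

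Efnb2 (chr8:8667226-8711249), the transmembrane ligand of Ephb4 and other B receptors, had the largest called falls among the ephrins. WT libraries held 7.98, 6.88 and 7.03 CPM at 24 h LCM, 32.8, 15.8 and 28 at 24 h HCM, 6.77, 5.98 and 4.46 at 72 h LCM and 14.1, 15.6 and 6.15 at 72 h HCM. PKP4-KO libraries held 0.634, 2.51 and 2.62, then 4.38, 3.97 and 2.81, then 1.95, 0.671 and 1.7, and finally 3.18, 2.04 and 2.16 CPM. Every PKP4-KO library was below every WT library of its condition. The differences were -1.89 (SE 0.38, edgeR adjusted p = 0.000227), -2.77 (SE 0.37, 5.39e-07), -1.95 (SE 0.39, 0.000209) and -2.29 (SE 0.40, 3.09e-05).

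Efnb1, the other abundant B ligand, is on the X chromosome and differed most at 72 h HCM, where WT measured 61.7, 64.2 and 74.4 CPM and PKP4-KO 32.4, 30.1 and 32.3. The difference there was -1.08 (SE 0.13, edgeR adjusted p = 9.44e-08). At 24 h HCM it was -0.43 (edgeR adjusted p = 0.00734), at 72 h LCM -0.32 (0.0406) and at 24 h LCM -0.30 (0.0613). The 24 h HCM call was lost without WT replicate 3 (-0.31) or PKP4-KO replicate 1 (-0.33), and the 72 h LCM call without any of 4 of its 6 libraries (-0.25 to -0.33). Without TMM factors the 24 h LCM value of Efnb1 was called (-0.52, edgeR adjusted p = 0.0112) and the 24 h HCM value was not (-0.38, 0.0582). The 24 h LCM value was also called with a replicate block in the fit (-0.30, edgeR adjusted p = 0.0492) and with at least 10 counts in every library (-0.36, 0.0225). The 24 h HCM call was also lost with no filter on low counts (-0.41, edgeR adjusted p = 0.0557) and with the compared groups alone in the fit (-0.45, 0.101). X-linked genes as a whole were lower in PKP4-KO, with medians over 481 tested genes of -0.50, -0.40, -0.43 and -0.49, and the part of that in Efnb1 was not tested. Efna2 went the other way at a low level, at 0.7 to 0.846 CPM in WT and 3.03 to 4.92 in PKP4-KO at 24 h LCM, with differences of 2.36, 3.38 and 1.93 called in the first 3 conditions and 1.15 (edgeR adjusted p = 0.14) in the last. Efna5 and Efnb3 were not called.

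Eph receptors moved in both directions, and the difference in their summed level was not tested. Per kilobase Epha1 (chr6:42335406-42350208) was the most abundant receptor on average over all groups. Ephb6 stood above it in WT and PKP4-KO at 72 h, and Epha2 in Rescue at 24 h and at 72 h LCM. Epha1 lay at 44.1 to 53.1 CPM in WT and 35.6 to 44.4 in PKP4-KO at 24 h LCM, which overlap. At 24 h HCM WT lay at 54.7 to 56.6 and PKP4-KO at 35.8 to 39.9, at 72 h LCM at 56.7 to 58.5 and 31.9 to 38.8, and at 72 h HCM at 53.9 to 57.3 and 38.1 to 41.7 CPM. The differences were -0.30, -0.54, -0.68 and -0.49 (SE 0.10 each, edgeR adjusted p = 0.0175, 4.79e-05, 2.61e-06 and 0.000179). The first was lost without WT replicate 2 (-0.28), WT replicate 3 (-0.24) or PKP4-KO replicate 1 (-0.22), and without the 5 Gfap-bearing libraries it was -0.40 (edgeR adjusted p = 0.0589). Epha1 shares bases with Zyx on the other strand, and since the strand setting of the counting is not given in the sources used here, reads of the pair may not be separate.

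Epha2, a receptor known for its place at keratinocyte contacts, was higher in PKP4-KO only by the 72 h LCM test. WT measured 10.6, 13.3 and 10.9 CPM there and PKP4-KO 25.1, 22.9 and 23.8, a difference of 1.04 (edgeR adjusted p = 2.29e-05). Elsewhere the libraries overlapped and the differences were 0.29, -0.29 and 0.29, none called by edgeR. Without PKP4-KO replicate 1 the 24 h LCM value was 0.48 and called (edgeR adjusted p = 0.0315), and DESeq2 called the 72 h HCM value (0.41, DESeq2 adjusted p = 0.0399). Ephb4, the main receptor of Efnb2, was higher in PKP4-KO at 24 h LCM (0.56), 24 h HCM (0.64) and 72 h LCM (1.1), with SE 0.14 each and edgeR adjusted p = 0.0023, 0.00059 and 4.74e-07. At 72 h HCM its difference was 0.24 (SE 0.15, edgeR adjusted p = 0.172). Without the 5 Gfap-bearing libraries the 24 h LCM difference of Ephb4 was 0.50 (edgeR adjusted p = 0.126).

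Ephb6, which lacks kinase activity, was lower at 24 h HCM (-0.39, edgeR adjusted p = 0.0169), 72 h LCM (-0.55, 0.00127) and 72 h HCM (-0.36, 0.0235), and not called at 24 h LCM (0.25, 0.132). Only the 72 h LCM call kept its place when single libraries were left out. At 24 h HCM it was lost without WT replicate 1 (-0.32), PKP4-KO replicate 3 (-0.31) or the 5 Gfap-bearing libraries (-0.31), at 72 h HCM without either of 2 WT (-0.32 and -0.34) or 2 PKP4-KO libraries (-0.36 and -0.33), and at 24 h LCM the gene was called without PKP4-KO replicate 1 (0.37, edgeR adjusted p = 0.0446). Trpv6 overlaps Ephb6 on the other strand. Ephb3 fell in the same 3 conditions, with differences of -0.49, -0.92 and -0.88 (edgeR adjusted p = 0.00689, 8.85e-06 and 1.71e-05). Epha4 was called once, higher at 24 h LCM, at 0.95 and at 1.12 without the 5 Gfap-bearing libraries (edgeR adjusted p = 0.197), and Ephb2 and Epha7 never.

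Ephb1 (chr9:101799327-102231898) was near the limit of detection in WT and measurable in PKP4-KO. It passed the read filter only through PKP4-KO, so its direction bears on its having been tested. WT held 1, 0.35 and 0.156 CPM at 24 h LCM, 0.206, 0.0718 and 0.051 at 24 h HCM, 0 in all 3 at 72 h LCM and 0.177, 0.176 and 0.103 at 72 h HCM. PKP4-KO held 2.54, 4.02 and 3.56, then 2.14, 2.72 and 3.03, then 3.05, 2.85 and 3.05, and finally 1.4, 0.436 and 1.59 CPM. All PKP4-KO libraries were above the WT libraries of their condition. The differences were 2.73 (SE 0.53, edgeR adjusted p = 0.000189) and 4.47 (SE 0.63, 1.84e-06) at 24 h and 2.82 (SE 0.65, 0.000832) at 72 h HCM, and at 72 h LCM PKP4-KO was at least 22.1-fold higher, with WT at a floor of 3 counts in each library (0.135 CPM). Leaving out replicate 1 of WT, one of the Gfap-bearing libraries at 24 h, raised the differences to 3.72 in LCM and 5.30 in HCM.

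**Figure D3:**
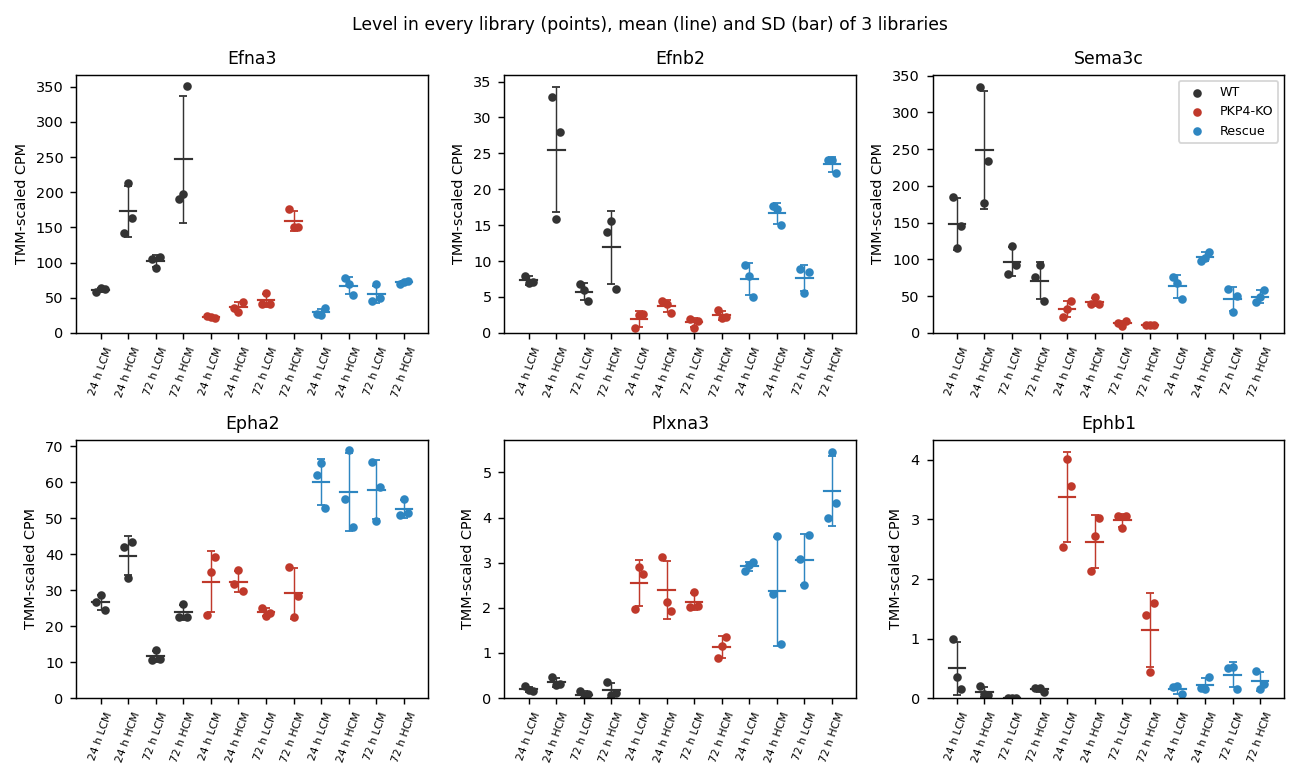
CPM in each of the 36 libraries (points, linear axes from 0, with the mean as a line and the SD as a bar) for Efna3, Efnb2, Sema3c, Epha2, Plxna3 and Ephb1, by genotype and culture condition. For Efnb2, PKP4-KO lies between 0.634 and 4.38 CPM while every WT library is at 4.46 or above, and for Epha2 the Rescue libraries (47.6 to 68.9 CPM) lie above all others.

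Of the 13 semaphorins 4, 8, 4 and 3 were lower in PKP4-KO and 1, 1, 2 and 0 higher in the 4 conditions, beside 20.6%, 22.2%, 23.8% and 29.9% of all genes lower and 19.7%, 20.7%, 21.3% and 21.9% higher. Their medians were -1.25, -1.18, -0.30 and -0.33, or -1.25, -0.45, -0.30 and -0.31 with members at 0 set at their bound or left out. Sema3c (chr5:17779219-17935648), a secreted ligand that signals through neuropilins and plexins, had the most reads. WT held 185, 115 and 145 CPM at 24 h LCM, 335, 177 and 234 at 24 h HCM, 79.9, 118 and 92.4 at 72 h LCM and 76.2, 92.7 and 43.6 at 72 h HCM. PKP4-KO held 21.8, 33 and 42.7, then 39, 48.4 and 38.6, then 13.6, 8.64 and 16.3, and finally 10.2, 11.3 and 10.8 CPM. The highest PKP4-KO library of each condition was below the lowest WT library. The differences were -2.19 (SE 0.30, edgeR adjusted p = 1.08e-06), -2.57 (SE 0.30, 5.86e-08), -2.91 (SE 0.31, 1.36e-08) and -2.72 (SE 0.32, 5.32e-08). The 25 tested genes within 5 Mb had medians of -0.68, -0.61, -0.50 and -0.61, and the 973 on chromosome 5 of -0.34, -0.34, -0.38 and -0.54, whose part in the result was not tested.

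Sema3e, whose receptor is Plxnd1, lay at 0.875 to 1.43 CPM in WT and 0.0705 to 0.375 in PKP4-KO at 24 h LCM, and at 0.968 to 1.7 and 0.14 to 0.418 at 24 h HCM. At 72 h LCM WT lay at 0.136 to 0.436 and PKP4-KO at 0 to 0.061, and at 72 h HCM WT lay at 0.41 to 1.7 while PKP4-KO had 0 reads in all 3 libraries. The differences were -2.25 (SE 0.57, edgeR adjusted p = 0.00242), -2.51 (SE 0.56, 0.000637) and -2.49 (SE 0.87, 0.0221), and at 72 h HCM PKP4-KO was at least 2.34-fold lower, at its floor of 0.386 CPM, a bound that was 1.3-fold without WT replicate 2. The 72 h LCM call was lost without WT replicate 2 (-1.87), PKP4-KO replicate 2 (-2.13) or PKP4-KO replicate 3 (-2.69), and at 24 h HCM the difference was -3.27 without PKP4-KO replicate 2. Plxnd1 fell at 24 h LCM (-2.44), 72 h LCM (-1.35, and -1.37 with edgeR adjusted p = 0.0647 without the 5 Gfap-bearing libraries) and 72 h HCM (-2.83), and its value at 24 h HCM was -1.16 (edgeR adjusted p = 0.122). Of the class 4 semaphorins, which are membrane-bound, Sema4a fell at 24 h LCM (-0.39), 24 h HCM (-1.18) and 72 h LCM (-0.53), the first being -0.42 and not called without the 5 Gfap-bearing libraries, and had -0.33 (edgeR adjusted p = 0.0519) at 72 h HCM.

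Sema7a, a lipid-anchored semaphorin that binds integrins, fell at 24 h LCM (-3.25) and 24 h HCM (-2.91) from WT levels of 0.104 to 1.32 CPM, and the first was -0.86 (edgeR adjusted p = 0.697) without the 5 Gfap-bearing libraries. Sema3f, second among the semaphorins per kilobase, was called once, at 24 h LCM (0.43, edgeR adjusted p = 0.0491), a call lost without any of 5 of its 6 libraries (0.29 to 0.46), without the 5 Gfap-bearing libraries (0.36) and under every other setting tried except DESeq2. Sema4b was called once, at 24 h HCM (-0.57, edgeR adjusted p = 0.0171), which was lost without WT replicate 2 (-0.50), WT replicate 3 (-0.51) or PKP4-KO replicate 2 (-0.47). Sema4c was higher at 24 h HCM (1.16, edgeR adjusted p = 0.0457) and 72 h LCM (1.59, 0.00323). The 24 h HCM call of Sema4c was lost without any of 5 of its 6 libraries (0.83 to 1.27), and the difference was 1.98 without WT replicate 1. Sema4d, Sema4f, Sema5a and Sema6c were each called lower once, Sema6d 2 times in opposite directions with 1 group at 0 and the other below the floor of the first, and Sema3b never.

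Among the plexins Plxna3 (chrX:73372672-73388295), a receptor that works with neuropilins, was the one member called higher in PKP4-KO. WT held 0.264, 0.175 and 0.156 CPM at 24 h LCM, 0.464, 0.287 and 0.306 at 24 h HCM, 0.15, 0 and 0.0909 at 72 h LCM and 0.354, 0.0587 and 0.103 at 72 h HCM. PKP4-KO held 1.97, 2.91 and 2.76, then 3.12, 2.13 and 1.92, then 2.01, 2.35 and 2.05, and finally 0.889, 1.16 and 1.36 CPM. Each PKP4-KO library was above all WT libraries of its condition. The differences were 3.64 (SE 0.48, edgeR adjusted p = 5.01e-07), 2.73 (SE 0.45, 1.07e-05), 4.69 (SE 0.53, 3.66e-08) and 2.62 (SE 0.54, 0.000218), against medians of -0.41, -0.32, -0.37 and -0.41 for the 76 tested genes within 5 Mb. The 72 h values moved with single WT libraries, to 5.43 without replicate 1 and 4.07 without replicate 2 in LCM and to 3.79 without replicate 1 in HCM.

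Plxnb2, the most abundant plexin and a receptor of class 4 semaphorins, was 121 to 151 CPM in WT and 103 to 150 in PKP4-KO at 24 h LCM (-0.15, not called). At 24 h HCM it was 128 to 174 against 101 to 117, at 72 h LCM 102 to 136 against 72.2 to 97.2 and at 72 h HCM 108 to 140 against 73.4 to 93.9 CPM. These 3 conditions did not overlap, and the differences were -0.50, -0.45 and -0.58 (SE 0.16 each, edgeR adjusted p = 0.0101, 0.0202 and 0.00326). The 24 h HCM call was lost without WT replicate 3 (-0.39) and the 72 h LCM call without WT replicate 2 or PKP4-KO replicate 1 (-0.34 in each case). Plxna1 was lower at 72 h HCM only (-0.55, edgeR adjusted p = 0.0157), a call lost without PKP4-KO replicate 2 (-0.49), while at 72 h LCM (-0.44, 0.0567) it was called without WT replicate 1 (-0.53) or PKP4-KO replicate 2 (-0.66). Plxnb1 was called in no condition (-0.21, -0.09, 0.25 and -0.17) and Plxna2 once, lower. Without TMM factors Plxnb1 was called at 72 h HCM (-0.95, edgeR adjusted p = 0.00235) and Plxna1 at 72 h LCM (-0.85, 0.0055), and the 24 h HCM call of Plxnb2 was lost (-0.45, 0.134).

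Genes that work with these families were taken from lists drawn up by function, with earlier results of these data known. Their counts beside all genes are therefore descriptive, and the genes named from the lists were picked after their values were seen. Of 34 tested semaphorin and plexin partners, 5, 5, 8 and 3 were higher in PKP4-KO and 14, 14, 16 and 16 lower in the 4 conditions, beside 19.7%, 20.7%, 21.3% and 21.9% of all genes higher and 20.6%, 22.2%, 23.8% and 29.9% lower, with medians of -0.28, -0.25, -0.32 and -0.53. The neuropilin co-receptors were among those that fell, Nrp1 at -1.09, -1.95, -1.22 and -2.08 and Nrp2 at -1.20, -1.1, -1.09 and -1.09. Met, a kinase that B-class plexins bind, stood at -1.43, -1.09, -2.07 and -2.91, and Limk1, which phosphorylates cofilin, at -2.09, -2.26, -2.27 and -1.47. Rnd1, a GTPase that binds plexins, rose by 3.09, 2.47, 2.75 and 2.65. All of these were called in each condition.

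Of 28 Eph and ephrin partners, 4, 3, 3 and 2 were higher and 11, 7, 11 and 15 lower, to be read beside the same shares of all genes, with medians of -0.62, -0.26, -0.43 and -0.61. Vav2, an exchange factor recruited by Eph receptors, went from a mean of 76.8 CPM in WT to 6.26 in PKP4-KO at 24 h LCM, and its differences of -3.61, -3.82, -3.77 and -4.86 were each called. Adam10, which sheds ephrins and other surface proteins, was called lower in each condition (-1.45, -1.20, -1.34 and -0.92), and the exchange factor Vav3 was called higher in the first 3 (1.90, 2.22 and 2.44). Of 13 tested netrin, Slit and Robo pathway genes 4, 4, 4 and 5 were higher and 4, 1, 5 and 3 lower, beside those shares again. Unc5b, a netrin receptor, was lower in each (-2.65, -2.32, -3.00 and -3.96), and Robo2 was higher, at 6.89 CPM in PKP4-KO against 0.193 in WT at 24 h LCM.

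Rescue was next compared with PKP4-KO, where an effect of tagged human PKP4 and a difference between lines cannot be told apart. At 24 h LCM 12 members were higher and 3 lower in Rescue, beside 18.2% and 15.5% of all genes. At 24 h HCM 17 were higher and 4 lower (21.7% and 19%), at 72 h LCM 14 and 5 (23.3% and 18.3%) and at 72 h HCM 18 and 4 (37.2% and 29.5%). Without TMM factors the calls were 19 and 2 at 72 h LCM and 30 and 0 at 72 h HCM. Semaphorins made up 8, 9, 8 and 7 of the higher calls and none of the lower ones. Sema3b, Sema4f and Sema6d had most of their reads in Rescue and passed the read filter through it. The filter thus favoured a higher call for them, and they enter these counts and the medians that follow. Of the 13 semaphorins the median was 1.29, 1.30, 1.51 and 2.15, or 1.29, 1.1, 1.31 and 1.98 with members at 0 set at their bound or left out. Both this comparison and that with WT use the same PKP4-KO libraries and are not independent.

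At least 1 condition called 28 of the 36 members between Rescue and PKP4-KO, beside 83.2% of all genes. Higher in Rescue than in PKP4-KO in all 4 conditions, as were 9.08% of all genes, were Efnb2, Epha2, Plxnd1, Sema3c, Sema3e, Sema4a, Sema5a, Sema6d and Sema7a. Of these Sema6d passed the read filter through Rescue, which favours this direction. Without the 5 Gfap-bearing libraries Plxnd1 (1.64) and Sema5a (0.73) were no longer called at 24 h HCM, nor was Sema4a at 72 h HCM (0.27). Lower in all 4, as were 5.99% of all genes, were Efna2 and Ephb1, the latter tested only through its reads in PKP4-KO, which favours this direction. Efnb2 in Rescue lay at 5.04 to 9.47 CPM at 24 h LCM, 15 to 17.7 at 24 h HCM, 5.52 to 8.87 at 72 h LCM and 22.3 to 24.1 at 72 h HCM. These levels were above every PKP4-KO library of the condition, with differences of 1.93, 2.15, 2.37 and 3.25 from PKP4-KO. Against WT they were 0.04, -0.62 and 0.42, none called, and 0.97 at 72 h HCM (edgeR adjusted p = 0.0312), a call lost without WT replicate 3 (0.66), without any single Rescue library (0.95 to 1) and without the 5 Gfap-bearing libraries (0.92, edgeR adjusted p = 0.107).

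Sema3c rose in Rescue by 0.96, 1.30, 1.83 and 2.19 over PKP4-KO and stayed under WT by the test in 3 conditions (-1.23, -1.27 and -1.07), with -0.53 at 72 h HCM not called. Its 24 h LCM rise was lost without PKP4-KO replicate 1 (0.74) or Rescue replicate 1 (0.81), and its 2 calls against WT at 24 h without the 5 Gfap-bearing libraries (-1.20 and -1.03, edgeR adjusted p = 0.0515 and 0.0576). Sema3e lay at 2.36 to 5.5 CPM in Rescue at 24 h LCM and 7 to 9.62 at 72 h HCM, above both other genotypes in each condition. Its rise over PKP4-KO was 4.04, 3.90 and 5.52 and at least 22.3-fold at 72 h HCM (4.66 at 24 h HCM without PKP4-KO replicate 2), and over WT 1.79, 1.39, 3.03 and 3.20. Both 24 h calls over WT were lost without the 5 Gfap-bearing libraries (1.72 and 1.64), and the HCM call also without any of 5 of its 6 libraries (1.17 to 1.54). The 72 h values over WT were 3.66 and 4.05 without WT replicate 2. Ephb1 lay at 0.0655 to 0.515 CPM in Rescue, with differences from PKP4-KO of -4.36, -3.48, -2.90 and -2.01. Without TMM factors the last was -0.87 and not called (edgeR adjusted p = 0.204), and the 24 h LCM rise of Sema3c was 1.04 (0.0501).

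By the test with TMM scaling Efna3 was higher in Rescue than in PKP4-KO at 24 h HCM and Efna4 at 24 h in both media, with means still below WT. Plxna3 was called lower in Rescue than in PKP4-KO in no condition. Efna3 in Rescue measured 27.1, 26 and 35.3 CPM at 24 h LCM, 77.5, 69.3 and 54.5 at 24 h HCM, 46, 68.8 and 49 at 72 h LCM and 69.6, 72.2 and 73.7 at 72 h HCM. Every Rescue library was below every WT library of its condition, with differences from WT of -1.05, -1.37, -0.90 and -1.78, all called. Against PKP4-KO it was higher at 24 h HCM (0.88, edgeR adjusted p = 0.000878), not called in LCM (0.41 and 0.24), and lower at 72 h HCM (-1.15, 2.37e-05), where library sizes without TMM factors gave 0.03. The same sizes called Efna3 higher in LCM at 24 h (0.50, edgeR adjusted p = 0.00365) and 72 h (0.58, 0.000608), and Efna4 at 72 h in LCM (0.61) and HCM (1.08). Efna4 passed the test over PKP4-KO at 24 h only (0.43 and 0.47), and the LCM call was lost without any 1 of its 6 libraries (0.38 to 0.46), the HCM call without either of 2 PKP4-KO libraries (0.45 in each case). At 72 h LCM Efna4 stood at 0.29 (edgeR adjusted p = 0.154) and was called without Rescue replicate 1 (0.51, edgeR adjusted p = 0.00924). Plxna3 stayed high in Rescue, at 1.19 to 3.6 CPM at 24 h, 2.5 to 3.62 at 72 h LCM and 3.98 to 5.45 at 72 h HCM. Its differences from PKP4-KO were 0.19, -0.02 and 0.53, none called, and 2.00 at 72 h HCM (edgeR adjusted p = 0.000183).

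Epha2 in Rescue lay above both other genotypes, at 62, 65.5 and 53 CPM at 24 h LCM, 55.5, 68.9 and 47.6 at 24 h HCM, 65.8, 49.3 and 58.8 at 72 h LCM and 50.8, 55.4 and 51.6 at 72 h HCM. The differences were 0.89, 0.82, 1.28 and 0.85 from PKP4-KO and 1.18, 0.53, 2.32 and 1.14 from WT, all called. The 24 h HCM difference from WT was lost without WT replicate 2 (0.42), Rescue replicate 2 (0.38) or TMM factors (0.64, edgeR adjusted p = 0.0888). Rescue differed from WT in 10, 11, 23 and 19 members in the 4 conditions, beside 24.8%, 23.2%, 32.4% and 36.2% of all genes. Of these 8, 5, 14 and 14 were higher, and without TMM factors 5 were higher and 2 lower, 4 and 4, 10 and 4, and 20 and 2. In at least 1 condition 28 members were called, beside 58.6% of all genes. Called higher in all 4 were Efna5, Epha2, Plxna3 and Sema3e (5.13% of all genes were), and lower Efna3 (3.21%). Without the 5 Gfap-bearing libraries 4 of the 10 calls at 24 h LCM remained, and Efna5 was no longer called there (0.74).

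Calcium was compared as HCM minus LCM within each genotype and time. In WT 9 members were called at 24 h (7 higher, 2 lower) and 11 at 72 h (7 and 4), beside 14.2% and 21.4% of all genes. In PKP4-KO 0 were called at 24 h by edgeR (7 at an unadjusted p below 0.05, and 1 by DESeq2) and 11 at 72 h (5 and 6), beside 2.83% and 32.6%. In Rescue 11 were called at 24 h (7 and 4) and 9 at 72 h (6 and 3), beside 12% and 24.9%. Without TMM factors the splits were 3 and 4 in WT at 24 h, 4 and 8 in WT at 72 h, 2 and 18 in PKP4-KO at 72 h, 3 and 3 in Rescue at 24 h and 7 and 2 in Rescue at 72 h, and without the 5 Gfap-bearing libraries 3 of the 9 calls in WT at 24 h remained.

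Efna3 rose with calcium in WT by 1.5 at 24 h and 1.27 at 72 h, in PKP4-KO by 1.78 at 72 h and in Rescue by 1.19 at 24 h. In PKP4-KO at 24 h it stood at 0.72 (edgeR adjusted p = 0.0549) and in Rescue at 72 h at 0.40, not called. The first was called by DESeq2 (0.72, DESeq2 adjusted p = 0.0288), with at least 10 counts in every library (0.76, edgeR adjusted p = 0.0311) and without TMM factors (0.72, 0.00174), and the second without TMM factors (0.56, 0.00214). Efnb2 rose by 1.81 and 1.07 in WT and by 1.14 and 1.62 in Rescue, and stood at 0.93 and 0.73 in PKP4-KO, not called. Without the 5 Gfap-bearing libraries, which leaves 1 WT library at 24 h LCM, the WT value at 24 h was 1.64 and no longer called. The WT call at 72 h was lost without any of 4 of its 6 libraries (0.83 to 1.1), and the Rescue call at 24 h likewise (0.93 to 1.19). Both of the latter were also lost without TMM factors (0.82 and 1.09) and without the 5 Gfap-bearing libraries (1.05 and 1.23, edgeR adjusted p = 0.0622 and 0.08). Ephb6 rose in WT at 24 h by 0.99 (edgeR adjusted p = 3.31e-06), from 25.1 to 25.6 CPM in LCM to 45.7 to 55.6 in HCM, ranges that lay far apart. Epha2 was called in WT alone, at 0.58 and 1.04, the first lost without any of 4 of its 6 libraries (0.50 to 0.58) and without the 5 Gfap-bearing libraries (0.65, edgeR adjusted p = 0.276) or TMM factors (0.30, 0.491).

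Sema4c, a membrane-bound ligand of B-class plexins, was with Ephb1 one of the 2 members called lower with calcium in WT at 24 h. It went from 2.7, 1.58 and 2.81 CPM in LCM to 1.08, 0.359 and 0.306 in HCM, a difference of -1.99 (SE 0.46, edgeR adjusted p = 0.00294), and -2.82 without WT HCM replicate 1. It was also lower in HCM in PKP4-KO at 72 h (-1.99) and in Rescue at 24 h (-2.13). Ephb1 stood at -2.10 in WT at 24 h (edgeR adjusted p = 0.0318), which was -1.11 without WT LCM replicate 1 (0.407), -1.92 and -1.74 without HCM replicates 2 and 3 and no longer called, and -2.94 without HCM replicate 1. Without the 5 Gfap-bearing libraries, which leaves 1 WT library in LCM, Ephb1 stood at -1.28 and was no longer called. Efnb1 did not pass in WT (-0.12 and -0.15, the second -0.48 and called without TMM factors) and was lower in HCM in Rescue (-0.90 and -1.07) and in PKP4-KO at 72 h (-0.90). Plxnb1 was lower in HCM in WT at 72 h (-0.54), PKP4-KO at 72 h (-0.96) and Rescue at both times (-0.64 and -0.46), and all but the PKP4-KO call were lost without single libraries (-0.39 to -0.49, -0.55 to -0.59 and -0.33 to -0.51), the Rescue calls also without TMM factors (-0.67 and -0.35). The Rescue call of Plxnb1 at 72 h was also lost without the 5 Gfap-bearing libraries (-0.57, edgeR adjusted p = 0.0582).

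**Figure D4:**
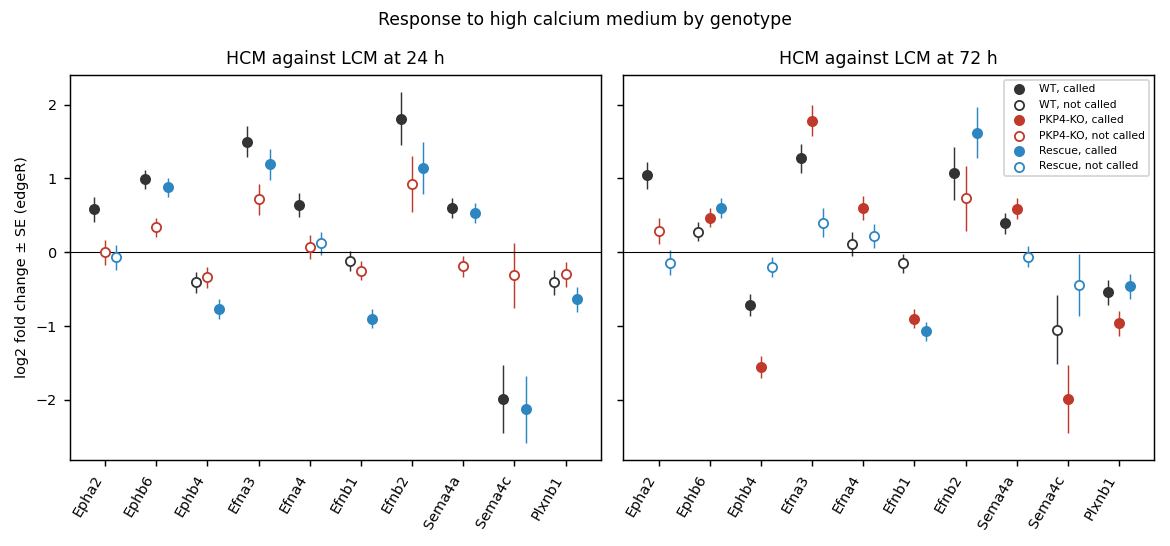
Log2 difference HCM minus LCM (points, bars ±SE, filled where the adjusted p is below 0.05) in WT, PKP4-KO and Rescue at 24 h and 72 h for 10 members. At 72 h Efnb1 is near 0 in WT (-0.15) and at -0.90 in PKP4-KO and -1.07 in Rescue, and Ephb4 is at -0.71 in WT and -1.56 in PKP4-KO.

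Whether the calcium response itself differed between PKP4-KO and WT was tested as the difference of the 2 responses. At 24 h 2 members passed (4.02% of all genes did), Sema4a and Ephb6, and at 72 h 3 did (5.74%), Efnb1, Ephb4 and Ephb1. Sema4a went from 12.2, 12.6 and 12.8 CPM in LCM to 18.5, 17.4 and 21.2 in HCM in WT, and from 10, 9.04 and 9.74 to 8.62, 9.08 and 7.53 in PKP4-KO. The ranges of the 2 media did not overlap in WT and overlapped in PKP4-KO. At 72 h Efnb1 stood at 66.4, 81.2 and 73.9 CPM in LCM and 61.7, 64.2 and 74.4 in HCM in WT, and at 53.8, 69.7 and 53.8 and then 32.4, 30.1 and 32.3 in PKP4-KO.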

How the data were processed

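Strand-specific poly(A) RNA-seq of 36 keratinocyte libraries was analysed. Per the labels and methods, the authors aligned reads to GRCm39 (mm39) with HISAT2 2.1.0, handled them with SAMtools 1.10 and counted them per gene with featureCounts 2.0.0. The deposited values used here are whole-number counts per gene, not normalized, with gene length as a pooled column of the authors, so multimapping and the strand setting bear on genes that overlap. Columns of every library were mapped to their label by name.

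Genes were filtered with filterByExpr over the 12 groups, scaled by TMM and tested in a single model of group means with edgeR 4.0.16 in R 4.3.3 (quasi-likelihood test, Benjamini-Hochberg over 15114 genes, threshold 0.05). The scripts were tested on simulated data. A group with 0 counts was set at a floor of 3 counts in each library, which covers counting error only. Library depth was 13602728 to 22467187 counts. Alternatives were DESeq2 1.42.0, no TMM factors, other filters, the compared groups alone, a replicate block, each library left out, and, chosen after seeing the data, the PKP4-KO 72 h HCM libraries or the 5 libraries with at least 20 Gfap counts left out. Some marker genes are not reported here. Members, partner lists and marker lists were chosen with earlier results of these data known. Members described in full were those with a mean of at least 1 CPM called in 1 direction in PKP4-KO against WT in all 4 conditions, the 3 highest per kilobase of each family, and the 3 with the largest called calcium difference in WT at 24 h; others named were chosen after their values were seen. Promoter and motif matches were read from the GRCm39 genome and annotation.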

Additional observations from a re-analysis of the deposited data

Results flagged for a closer look

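The calcium response (HCM minus LCM) differed between PKP4-KO and WT in 5 members, by edgeR's quasi-likelihood test of the difference with Benjamini-Hochberg adjustment. The response of PKP4-KO minus that of WT was -0.79 for Sema4a at 24 h (SE 0.20, edgeR adjusted p = 0.0212) and -0.64 for Ephb6 at 24 h (SE 0.19, adjusted p = 0.047). Both were higher in HCM in WT (0.60 and 0.99) and not called in PKP4-KO (-0.19 and 0.34). Of the 12 fits that each left out 1 library, 4 no longer called Sema4a and 9 no longer called Ephb6, and 3 of 6 other settings called neither (adjusted p up to 0.514 and 0.61). Neither was called without the 5 Gfap-bearing libraries.

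At 72 h the difference was -0.76 for Efnb1 (SE 0.18, edgeR adjusted p = 0.00945) and -0.85 for Ephb4 (SE 0.21, adjusted p = 0.0104), and both held in all 12 fits that left out 1 library (adjusted p up to 0.0352 and 0.0455). They were lost under 2 of 6 other settings each (adjusted p up to 0.0896 and 0.0776). Both fell with calcium in PKP4-KO (-0.90 and -1.56), where all libraries at 72 h HCM had low TMM factors. Ephb1 gave -5.94 at 72 h (SE 1.27, edgeR adjusted p = 0.0042), but WT at 72 h LCM had 0 reads in all 3 libraries, so its size depends on the prior count and is no bound.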

How the results depend on the processing

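Without TMM factors the median of all genes moved by -0.23, -0.37 and -0.76 in PKP4-KO against WT at 24 h LCM, 72 h LCM and 72 h HCM, by 0.35 and 1.17 in Rescue against PKP4-KO at 72 h LCM and HCM, by -0.29 in the calcium comparison of WT at both times and by -0.69 in that of PKP4-KO at 72 h. In that setting the comparison of PKP4-KO with WT at 72 h HCM had 23 member calls, and there were 14 in Rescue against WT at 72 h LCM, 1 with calcium in PKP4-KO at 24 h, 20 in PKP4-KO at 72 h, 6 in Rescue at 24 h, and 0 for the difference of responses at 24 h. It reversed 11 values, all but 1 resting on PKP4-KO at 72 h HCM: Epha1 in Rescue against WT (0.16) and with calcium in PKP4-KO (-0.55), Ephb6 in Rescue against PKP4-KO (0.79) and with calcium (-0.21), Efna3 in Rescue against PKP4-KO (0.03), Efna4 in the same (1.08) and with calcium (-0.08), Plxnb1 (1.09) and Sema3f (1.08) in Rescue against PKP4-KO, and Sema3f (-0.71) and Sema4b (-0.57) in PKP4-KO against WT. With at least 10 counts in every library 20 members were tested, and calls were 8, 12, 11 and 9 in PKP4-KO against WT in the 4 conditions, 6, 11, 11 and 12 in Rescue against PKP4-KO, 15 and 11 in Rescue against WT at 72 h LCM and HCM, and 1 with calcium in PKP4-KO at 24 h, since fewer genes were tested. Fits with the compared groups alone called 12 in Rescue against PKP4-KO at 72 h LCM, 5 with calcium in WT at 72 h, and 0 and 1 for the difference of responses at 24 h and 72 h, and so did fits with no filter on low counts (0 and 1). DESeq2 called 1 with calcium in PKP4-KO at 24 h. Without the PKP4-KO 72 h HCM libraries 1 difference of responses at 24 h was called. Without the 5 Gfap-bearing libraries calls were 9 in PKP4-KO against WT and 4 in Rescue against WT at 24 h LCM, 3 with calcium in WT at 24 h and 0 for the difference of responses at 24 h. Leaving out 1 library at a time gave 6 to 13 calls in Rescue against WT at 24 h HCM, 6 to 10 with calcium in WT at 72 h, 6 to 12 in Rescue at 24 h and 0 to 2 differences of responses at 24 h. The cause of these changes was not tested where none is named. Of single-member values, 310 of 323 kept direction and call with DESeq2, 1801 of 1944 with 1 library left out and 254 of 324 without TMM factors, and none but the 11 reversed.

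Replicate numbers are shared across groups in the labels, but same-numbered libraries did not deviate together: 79 of 198 pairs correlated above 0.1 and 8 of 36 libraries correlated best with their own number. With the replicate block 15, 21, 20 and 16 members were called in PKP4-KO against WT and 15, 21, 18 and 23 in Rescue against PKP4-KO. Members below about 1 CPM rest on few reads, and a change in them was not detectable where both groups lay under the floor.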
